A study of Mus musculus and Homo sapiens with 10 samples.

Results

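H3K122ac and H3K4me1 were compared in K562 on the regions that the deposited lists of both marks delimit in the same way, so that reads of both marks could be counted over the same bases. Islands, which are stretches of neighbouring enriched windows, were taken where chromosome, start and end were identical in the H3K122ac and H3K4me1 lists and the chromosome was a numbered one. Members were thus chosen by the called ends, which rest on the same reads that are compared below, so levels and ratios are given as a description. This gave 3889 islands, which were 5.51% (Wilson 95% interval 5.35 to 5.69%) of the 70526 H3K122ac islands and 3.52% (3.41 to 3.63%) of the 110485 H3K4me1 islands on those chromosomes. The 6 deposited lists of the series held 632878 islands in all. K562 is an established human erythroleukaemia line, here at passage 14. Chromatin was cut with micrococcal nuclease and precipitated with an H3K122ac antibody or with an H3K4me1 antibody. There was 1 library for each mark, 1 for H3K27ac, used below as a further readout, and 1 for input. The other 6 libraries of the series came from mouse embryonic stem cells and were not analysed here.

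The lysine acetylated in H3K122ac lies in the globular core of histone H3, on the face that contacts the DNA wrapped around the nucleosome, and its acetylation is known to loosen that contact and to favour transcription. The acetyltransferases p300 and CBP can place it, as they place H3K27ac on the histone tail. H3K4me1 is a methylation of the tail that is found at active and at primed enhancers and at the flanks of active promoters, while nucleosomes next to an active start site more often carry the trimethylated form.

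For each island, the reads of a mark were divided by all reads in islands of its own list, giving reads per 1000000 island reads (RPM). The divisors were 18283729 reads for H3K122ac, over 191 Mb of islands, and 35562145 reads for H3K4me1, over 365 Mb, which is 95.7 and 97.4 reads per kb of island. The identical islands covered 7.87 Mb and held 725419 H3K122ac reads, 3.97% of that list's reads, and 845891 H3K4me1 reads, 2.38% of its list's. An island held a median of 99 H3K122ac reads and 127 H3K4me1 reads, with lowest counts of 22 and 29. The background count, from a library shared by both lists, was the same in both at all 3889 islands and had a median of 79. With 1 library for each mark there was no replicate spread, so no test was made. Intervals of a single island's ratio cover counting error only. Those of medians and shares take islands as independent, which neighbouring islands are not, and cover no spread between libraries.

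Identical islands were short. Their length ran from 200 to 32600 bp with a median of 1400 bp, while the other islands had medians of 2000 bp in the H3K122ac list and 2200 bp in the H3K4me1 list. The share of H3K122ac islands with an exact H3K4me1 counterpart was 7.34% at 200 to 800 bp, 7.22% at 1000 to 1600 bp, 4.78% at 1800 to 3200 bp and 3.18% above 3200 bp. For H3K4me1 islands the shares in the same order were 5.71%, 4.90%, 3.13% and 1.65%. Identical ends were thus least frequent among long islands in both lists. Enrichment over background, the authors' fold, was close to that of the rest of each list. Its median was 5.19 at identical islands and 5.28 at other H3K122ac islands, and 2.93 at identical islands and 2.69 at other H3K4me1 islands.

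The demand for identical ends is strict, and the islands just outside it resembled those inside. A further 5220 pairs differed by a single 200 bp window at 1 end, with a median log2 ratio of H3K122ac to H3K4me1 of 0.57 in RPM per kb. Another 1829 pairs differed by a window at both ends, with a median of 0.54. The identical islands had 0.60. Of the pairs that differed by a window at 1 end, the H3K4me1 island was the longer one in 58.4%. Those with the most reads were chr5:173265801-173300600 in the H3K122ac list (hg19), where the H3K4me1 island ended 1 window later, and chr17:31220601-31245600, where it did so as well. Their log2 ratios were 0.27 and 0.72.

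H3K122ac took a larger share of its list than H3K4me1 did on most identical islands. The median H3K122ac level was 4.01 RPM per kb, with quartiles of 2.73 and 6.11. The median H3K4me1 level was 2.64, with quartiles of 2.05 and 3.44. The log2 ratio had a median of 0.60 (95% interval of the median 0.57 to 0.63), quartiles of 0.15 and 1.09, and a range of -1.64 to 3.04. It was above 0 on 3166 islands and below 0 on 723. This sign depends on the divisor. Scaling to the sums over identical islands alone moved every ratio by -0.74, which left 1631 above 0 and 2258 below, or 41.9% above against 81.4% before. The authors' library ratios moved it by 0.21, to 89.0% above 0. Differences of median log2 ratios between islands are unaffected by such a common shift, while counts and shares past 2-fold depend on it.

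In total 1132 identical islands, 29.1% (Wilson 95% interval 27.7 to 30.6%), had at least 2-fold more H3K122ac than H3K4me1, and 33, 0.849% (0.605 to 1.19%), had at least 2-fold more H3K4me1. Over all 39770 pairs of islands that met each other and no other island, the same folds per kb were passed by 31.7% and 1.79%. In these pairs each mark was read over its own island. Where the ends were not identical, the H3K4me1 island was the longer one in 69.1%. Scaled to the sums over identical islands, the counts of identical islands were 241 and 365, and with the library ratios 1542 and 9. Counted from the median ratio instead of from 0, 338 islands lay at least 2-fold above it and 256 at least 2-fold below it. The spread was wider than counting alone gives. The SD over islands was 0.70 on the log2 scale, the median counting error of a single island 0.20, and counting accounted for 8.84% of the variance.

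**Figure D1:**
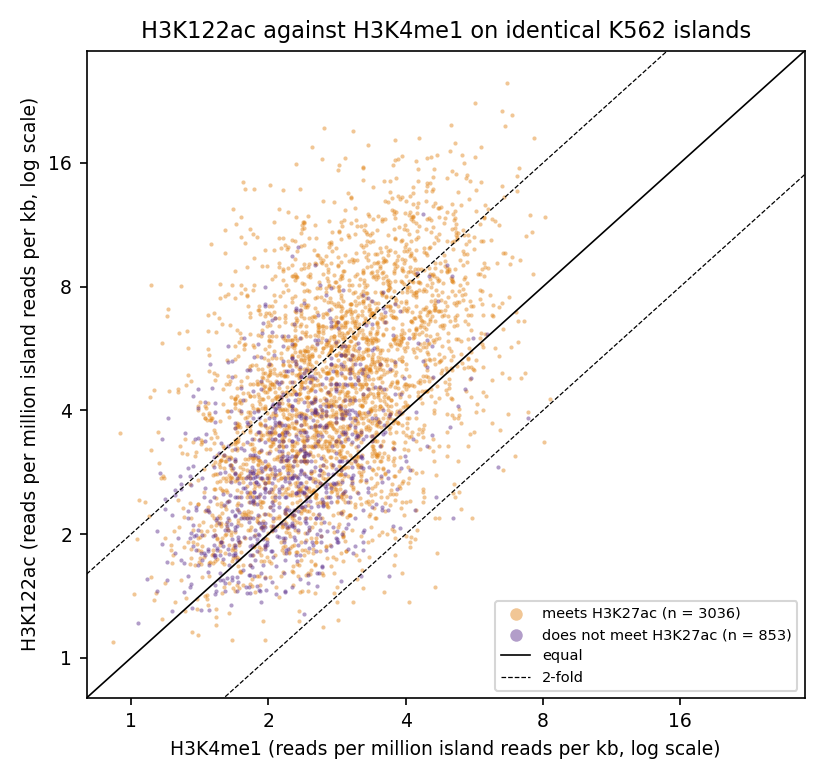
H3K122ac (vertical) against H3K4me1 (horizontal) in RPM per kb, both on log scales, for 3889 identical islands, 1 point each; the solid line is equality and the dashed lines are 2-fold. The cloud is taller than it is wide, and islands that meet H3K27ac reach the highest levels of H3K122ac.

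**Figure D2:**
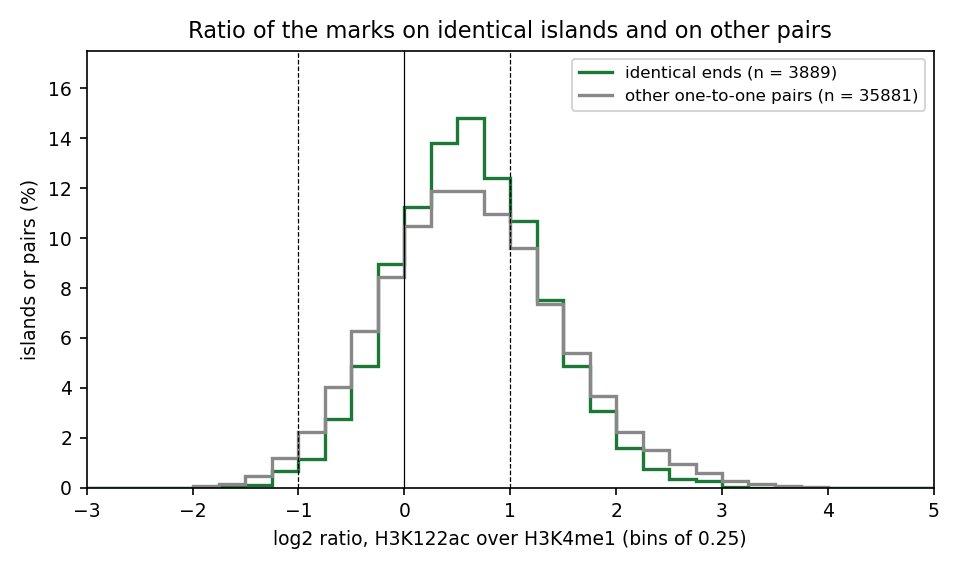
Share of islands (%) in bins of 0.25 of the log2 ratio of H3K122ac to H3K4me1, for 3889 identical islands and for 35881 other pairs that meet only each other. The medians are 0.60 in both sets, and identical islands spread less, with an SD of 0.70 against 0.84 in the other pairs. In the other pairs each mark was read over its own island, of median length 1800 bp for H3K122ac and 2600 bp for H3K4me1. How far these unlike lengths add to the spread was not tested.

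H3K122ac varied more among the identical islands than H3K4me1 did. The level at the 90th percentile was 4.42 times that at the 10th for H3K122ac, 8.81 against 1.99 RPM per kb, and 2.66 times for H3K4me1, 4.43 against 1.66. These levels include background reads, whose part in the contrast was not tested. In the authors' fold the 10th and 90th percentiles were 2.31 and 12.6 for H3K122ac, and 1.70 and 5.32 for H3K4me1. The levels of the marks were correlated across the 3889 islands, with a Pearson r of 0.51 on the log2 scale and a Spearman rho of 0.51. The islands share 2 libraries, a background and their ends, so these values are a description. Spearman rho was 0.31 at 200 to 800 bp, 0.44 at 1000 to 1600 bp, 0.55 at 1800 to 3200 bp and 0.61 above 3200 bp, and the shorter islands also held fewer reads.

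Ranking the islands by one mark shows how far the other follows. From the lowest to the highest decile of H3K122ac, the median of H3K122ac was 6.15 times higher and that of H3K4me1 2.05 times higher, at 1.76 and 10.8 RPM per kb for H3K122ac and 1.87 and 3.82 for H3K4me1. The median log2 ratio was -0.16 in the lowest decile and 1.59 in the highest. Ranked by H3K4me1, the medians of both marks changed to a like degree, 3.03 times for H3K122ac and 3.41 times for H3K4me1. The median ratio then stayed between 0.50 and 0.73 in all deciles. Across islands the Spearman rho was 0.75 between the ratio and H3K122ac and -0.14 between the ratio and H3K4me1. As both levels enter the ratio, these values were in part fixed by its construction.

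H3K27ac, which marks active promoters and enhancers, was not used to choose the islands. It was met by 3036 of the 3889, 78.1% (Wilson 95% interval 76.7 to 79.3%), against 78.1% (77.8 to 78.5%) of the other H3K122ac islands and 69.8% (69.5 to 70.1%) of the other H3K4me1 islands. The shares depended on length. At 200 to 800 bp H3K27ac was met by 65.3% (62.1 to 68.3%) of identical islands, 52.8% (51.9 to 53.7%) of other H3K122ac islands and 41.6% (40.8 to 42.3%) of other H3K4me1 islands. In the same order the shares were 73.6%, 69.1% and 55.6% at 1000 to 1600 bp, 85.1%, 85.1% and 72.2% at 1800 to 3200 bp, and 97.6%, 96.9% and 92.6% above 3200 bp. Identical and other H3K122ac islands thus differed in the 2 shorter classes, while from 1800 bp upwards their intervals overlapped. Identical islands have H3K4me1 by choice, which the other H3K122ac islands need not have. In pairs whose ends differed by a window at 1 end or at both, 75.9% and 75.8% of H3K122ac islands met H3K27ac. Where H3K27ac was met, its islands covered a median of 90% of the identical island, and 2555 of the 3036 met exactly 1 H3K27ac island. The 853 islands that met none were at a median distance of 11200 bp to the next H3K27ac island. This distance was more than 50000 bp for 138 islands.

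Identical islands with H3K27ac carried more of both marks, and the difference was larger for H3K122ac. The median of H3K122ac was 4.51 RPM per kb with H3K27ac and 2.84 without, 1.59 times. The median of H3K4me1 was 2.81 with H3K27ac and 2.25 without, 1.25 times. The median log2 ratio was accordingly 0.67 (0.64 to 0.71) with H3K27ac and 0.38 (0.33 to 0.43) without, a difference of 0.29. Over all 39770 pairs that met only each other this difference was 0.26, so it was not particular to identical islands. At least 2-fold more H3K122ac was found on 33.3% of identical islands with H3K27ac and on 14.2% of those without. Scaled to the sums over identical islands, these shares were 7.61% with H3K27ac and 1.17% without, and with the library ratios 44.2% with and 23.6% without. Of the 33 islands with at least 2-fold more H3K4me1, 29 met H3K27ac, which is 0.955% of the islands with H3K27ac and 0.469% of those without. That order turned when scaled to identical islands, to 8.56% with H3K27ac and 12.3% without. With the library ratios the shares were nearly equal, 0.231% with H3K27ac and 0.234% without. Median length was 1600 bp with H3K27ac and 1000 bp without, and median background was 55 reads per kb with H3K27ac and 62.5 without.

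Within classes of length the difference was present throughout. At 200 to 800 bp the median log2 ratio was 0.78 with H3K27ac (598 islands) and 0.56 without (318 islands). At 1000 to 1600 bp it was 0.71 with and 0.30 without, and at 1800 to 3200 bp 0.62 with and 0.13 without. The difference was thus 0.22, 0.41 and 0.48 in these classes. Above 3200 bp it was 0.63 with and 0.01 without, but only 13 islands of that length lacked H3K27ac, and the interval of their median ran from -0.34 to 0.56. Among islands without H3K27ac the ratio was lower the longer the island, while among those with H3K27ac it stayed between 0.62 and 0.78. Without H3K27ac, median H3K122ac was 3.83 RPM per kb in the shortest class and 1.88 in the longest. Median H3K4me1 was 2.62 and 1.89 there. Short islands hold few reads, and the part of the reads needed for a call was not tested. Within quartiles of background, low to high, the difference between islands with and without H3K27ac was 0.22, 0.24, 0.40 and 0.31. With at least 50 reads in each list and 10 of background, 3181 islands remained and the overall difference was 0.19.

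**Figure D3:**
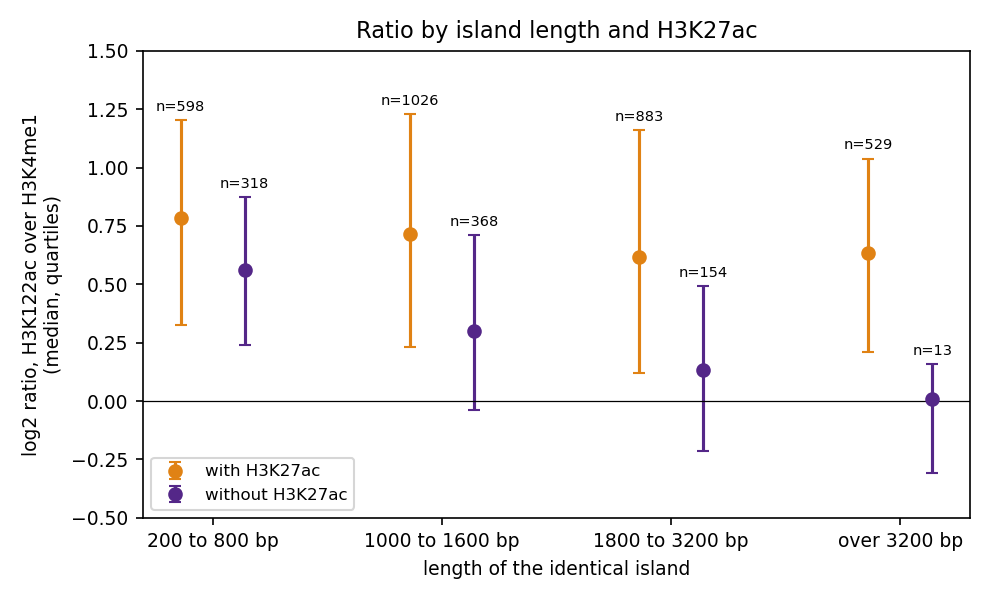
Median log2 ratio of H3K122ac to H3K4me1, with bars from the lower to the upper quartile, by length class of the identical island and by whether it meets H3K27ac; n is the number of islands. Islands with H3K27ac stand at 0.62 to 0.78 in all 4 classes, and those without run from 0.56 in the shortest class to 0.01 in the longest.

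The amount of H3K27ac was graded in the same sense as its presence. The 3036 islands with H3K27ac were divided into quartiles by the RPM per kb of the H3K27ac islands they met. From the lowest to the highest quartile, median H3K122ac was 3.08, 3.79, 4.92 and 7.88 RPM per kb, and median H3K4me1 was 2.18, 2.60, 2.97 and 3.83. This is 2.56 times from lowest to highest for H3K122ac and 1.75 times for H3K4me1. The median log2 ratio was 0.45, 0.51, 0.76 and 1.05, and the share of islands with at least 2-fold more H3K122ac was 19.5%, 25.0%, 34.7% and 54.0%. Scaled to the sums over identical islands, these shares were 3.27%, 5.17%, 6.86% and 15.2%. Background hardly differed between these quartiles, at 51.5, 55, 57.5 and 56.2 reads per kb, and the step from the lowest to the highest was 0.68, 0.61, 0.69 and 0.51 within the 4 quartiles of background, low to high. Median length was 1400 bp in the lowest quartile and 2000 bp in the highest.

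**Figure D4:**
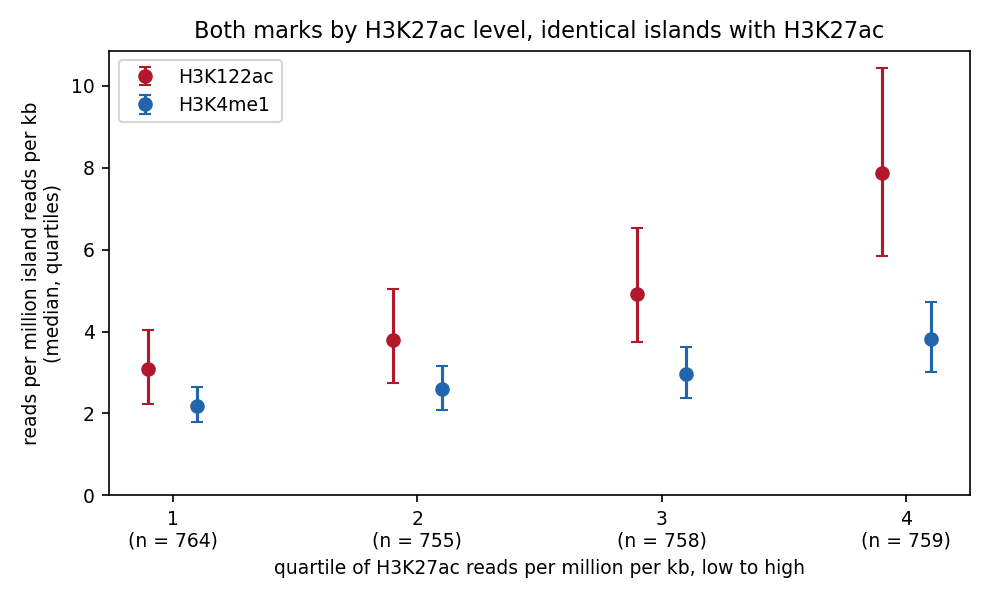
H3K122ac and H3K4me1 in RPM per kb on identical islands with H3K27ac, by quartile of H3K27ac level; points are medians and bars run from the lower to the upper quartile. H3K122ac is 2.56 times higher in the highest quartile than in the lowest, and H3K4me1 1.75 times.

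On 847 identical islands, 21.8%, the H3K27ac island had the same ends too, although H3K27ac islands were joined across a smaller gap, 200 bp in place of 600 bp. All 3 marks can be read there over the same bases. Medians were 5.16 RPM per kb for H3K122ac, 3.12 for H3K4me1 and 3.14 for H3K27ac. Spearman rho across these islands was 0.68 between H3K122ac and H3K27ac, 0.61 between H3K4me1 and H3K27ac, and 0.41 between H3K122ac and H3K4me1. By these levels, which include background reads, the pair compared here was the least alike of the 3 pairs. Median fold over background was 6.34 for H3K122ac, 3.36 for H3K4me1 and 2.68 for H3K27ac. The part of background in this order was not tested. The SD of the log2 ratio was 0.73 for H3K122ac to H3K4me1, 0.56 for H3K122ac to H3K27ac and 0.45 for H3K27ac to H3K4me1. Between the 10th and 90th percentile H3K122ac spanned 4.09 times, H3K4me1 2.56 times and H3K27ac 2.44 times.

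Over all identical islands, length by itself was related weakly to the ratio, but this depended on the setting. The median log2 ratio was 0.68 at 200 to 800 bp, 0.59 at 1000 to 1600 bp, 0.54 at 1800 to 3200 bp and 0.61 above 3200 bp. The shortest and longest class differed by 0.07, and the intervals of their medians overlapped. That difference was 0.35 with at least 50 reads in each list, which removes weak short islands. Background had a clearer relation. From the lowest to the highest quartile of background reads per kb, the median log2 ratio was 0.76, 0.61, 0.56 and 0.51, while median H3K122ac was 3.89, 4.01, 3.89 and 4.31 RPM per kb and median H3K4me1 2.30, 2.49, 2.72 and 2.98. Spearman rho with background was 0.07 for H3K122ac and 0.30 for H3K4me1. In reads in excess of background the difference between the lowest and highest quartile was 0.03 in place of 0.25.

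The islands with the most extreme ratios were taken among 2144 that held at least 200 reads of both marks together and at least 10 background reads, on numbered chromosomes other than 8. No hg19 annotation or genome was used here, so regions are given without genes and without sequence. The 5 highest ratios all belonged to islands of 800 to 3000 bp that met H3K27ac, as did 1975 of the 2144. Ranking by the ratio favours islands where the marks differ strongly, and either mark could supply most of the reads required. The highest was chr13:45491401-45493400, of 2000 bp, with 527 H3K122ac reads, 125 H3K4me1 reads and 77 background reads. This is 14.4 RPM per kb of H3K122ac and 1.76 of H3K4me1, a log2 ratio of 3.04 (exact 95% interval 2.75 to 3.33). Its H3K4me1 was thus below the median of the identical islands, while its H3K122ac was above their 90th percentile, and a single H3K27ac island covered the whole of it.

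The next highest ratios also combined H3K122ac above the 90th percentile with H3K4me1 near or below the median, and differed in their H3K27ac cover. At chr12:28122001-28123200 H3K122ac had 304 reads and H3K4me1 76, a log2 ratio of 2.96 (2.59 to 3.34), and H3K27ac covered 50% of it. At chr13:44765601-44766400 H3K122ac had 202 reads and H3K4me1 53, a ratio of 2.89 (2.45 to 3.35). H3K4me1 was 1.78 and 1.86 RPM per kb on these islands, below the lower quartile of all identical islands. At chr19:52799601-52801600 H3K122ac had 451 reads and H3K4me1 119, a ratio of 2.88 (2.59 to 3.19). At chr2:55745201-55748200 H3K122ac had 1069 reads and H3K4me1 283, a ratio of 2.88 (2.69 to 3.07). That island had the highest H3K122ac level of the 5, 19.5 RPM per kb, beside an H3K4me1 level of 2.65, near the median.

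The 5 lowest ratios also met H3K27ac, like most of the 2144 islands, and combined high H3K4me1 with weak H3K122ac. Ranking by the ratio favours that combination, and H3K4me1 gave most of the reads that met the minimum. The lowest was chr3:77285001-77287200, of 2200 bp, with 60 H3K122ac reads, 364 H3K4me1 reads and 91 background reads. This is 1.49 RPM per kb of H3K122ac and 4.65 of H3K4me1, a log2 ratio of -1.64 (-2.06 to -1.24). Its H3K4me1 was above the 90th percentile of the identical islands and its H3K122ac below their 10th percentile. At chr10:126142001-126143800 H3K122ac had 45 reads and H3K4me1 260, a ratio of -1.57 (-2.06 to -1.11). At chr3:13584601-13590400, of 5800 bp, H3K122ac had 191 reads and H3K4me1 966, a ratio of -1.38 (-1.61 to -1.15), with H3K27ac over 31.0% of the island. This was also the lowest ratio of any of the 235 islands of at least 5000 bp. The other two, chr4:74751201-74752200 and chr4:159669001-159671000, had ratios of -1.35 (-1.88 to -0.86) and -1.28 (-1.71 to -0.87). The authors' H3K122ac fold lay between 1.40 and 3.10 on these 5 islands, against a median of 5.19 over all identical islands.

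**Figure D5:**
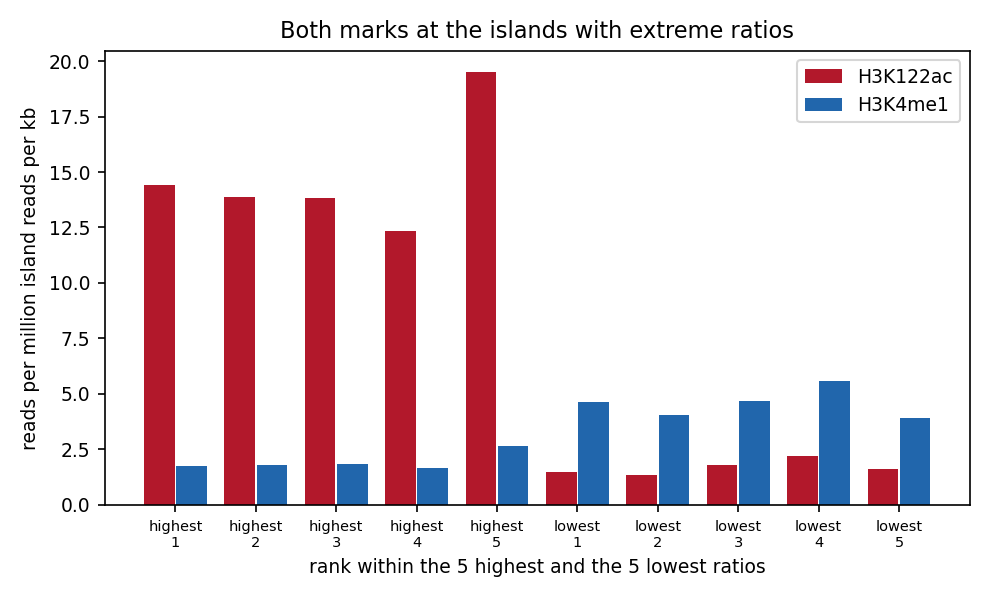
H3K122ac and H3K4me1 in RPM per kb at the identical islands with the 5 highest and the 5 lowest ratios; 1 library for each mark, so the bars have no error. H3K122ac runs from 12.3 to 19.5 on the 5 highest islands and from 1.37 to 2.19 on the 5 lowest, and H3K4me1 from 1.67 to 2.65 on the 5 highest and from 3.92 to 5.60 on the 5 lowest.

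Some islands were strongly enriched in both marks. Ranked by the smaller one of the authors' folds, the first was chr7:16598601-16600200, with folds over background of 18.3 for H3K122ac and 13.3 for H3K4me1. It held 142 and 232 reads over 30 background reads, a log2 ratio of 0.25 (-0.06 to 0.56). Scaled to the sums over identical islands this ratio was -0.49 (-0.80 to -0.18), and with the library ratios 0.46 (0.15 to 0.77). The second was chr12:14435801-14438000, with folds of 41.7 and 10.3 and a log2 ratio of 1.80 (1.62 to 1.98). It held 721 and 402 reads, and the H3K27ac island over it had a fold of 13.0. The others were chr15:45123001-45124800, chr22:24593601-24594600 and chr17:4639401-4640000, with log2 ratios of 1.01, 1.33 and 1.27 and 24 to 28 background reads. Background was low in 4 of the 5, between 13.3 and 30.5 reads per kb, and 46.7 in the last, against a median of 56.4 over all identical islands. The shared background enters both folds.

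Long identical islands spread over much of the range of ratios. The longest, chr6:135621601-135654200, spanned 32600 bp, with 2551 H3K122ac reads and 4977 H3K4me1 reads, a log2 ratio of -0.00 (-0.07 to 0.06). It met 5 H3K27ac islands that covered 95.1% of it. The next, chr7:139678801-139702600 of 23800 bp and chr5:148815601-148838600 of 23000 bp, had ratios of 0.48 (0.39 to 0.57) and 1.20 (1.13 to 1.27). The intervals of these 3 ratios did not overlap. Among islands of at least 5000 bp the highest ratios were 2.32 (2.11 to 2.53) at chr7:148201-154400, where H3K27ac covered only 22.6% of the island, 2.17 (2.07 to 2.28) at chr11:59311801-59322000 and 1.84 (1.70 to 1.99) at chr6:56404201-56409200. The lowest after the chromosome 3 island were -0.76 (-0.97 to -0.56) at chr17:57919601-57925400 and -0.69 (-0.96 to -0.43) at chr12:89776201-89781200.

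High ratios also occurred away from H3K27ac. Of the 2144 islands with enough reads, 119 had no H3K27ac island within 5000 bp. The highest ratio among them was 2.11 (1.68 to 2.55) at chr14:90701201-90702000, of 800 bp, with 146 H3K122ac reads and 66 H3K4me1 reads over 30 background reads. The nearest H3K27ac island lay 20400 bp away. At chr7:155867601-155868400 the ratio was 2.08 (1.64 to 2.53), with 139 and 64 reads, and H3K27ac was 199800 bp away. At chr2:45202601-45203600 it was 1.89 (1.46 to 2.33), with 133 and 70 reads, and H3K27ac was 168200 bp away. Scaled to the sums over identical islands, these 3 ratios were 1.37 (0.94 to 1.81), 1.34 (0.90 to 1.79) and 1.15 (0.72 to 1.59).

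Chromosomes differed little. The median log2 ratio was highest on chromosome 13, at 0.76 (0.50 to 1.05; 88 islands), and on chromosome 19, at 0.74 (0.61 to 0.85; 171 islands). It was lowest on chromosome 5, at 0.46 (0.31 to 0.58; 195 islands), and on chromosome 18, at 0.51 (0.37 to 0.66; 90 islands). The intervals of chromosomes 19 and 5 did not overlap, while those of 13 and 18 did. These were picked as the extremes of all numbered chromosomes, so some separation follows from the choice. Background was 43 and 50.6 reads per kb on chromosomes 13 and 19, and 61.3 and 52.7 on chromosomes 5 and 18, and its part in the order was not tested. In the 20 bins of 1 Mb that held at least 8 identical islands the median ran from -0.06, on chromosome 12 at 49000001 to 50000000, to 1.17, on chromosome 15 at 90000001 to 91000000. Within the chromosome 12 bin single islands ranged from -0.96 to 2.00.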

How the data were processed

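The submitters' processing notes name Bowtie 0.12.8, HOMER 4.3, SICER 1.1 and the human build hg19, without saying what each did. The names of the deposited lists give windows of 200 bp, a gap of 600 bp (200 bp for H3K27ac) and a false discovery rate of 0.01. The deposited columns are raw read counts for the ChIP and for its background, the authors' p-value and q-value, not used here, and their fold, the ratio of the counts divided by 1 library ratio for each list, 0.258 for H3K122ac, 0.581 for H3K4me1 and 0.688 for H3K27ac. No source used here says which library gave the background. Planned comparisons by gene class and base composition were not made, as no hg19 annotation or genome was used here. Regions are 1-based. PCR duplicates may remain in the counts, and the intervals do not allow for them.

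Identical islands were joined on chromosome, start and end. Meeting H3K27ac meant at least 1 bp. Intervals of a median are exact binomial (order statistics), those of an island's ratio exact Clopper-Pearson on the reads of both marks, at 95%. The named regions were, among islands with at least 200 reads together and 10 of background, the 5 highest and 5 lowest ratios, the 5 with the highest smaller fold, the 3 longest, and the 3 at each end of the classes described. The members, classes and comparisons were chosen with earlier results of these data known. Scripts (Python 3.11.15, pandas 2.3.3, scipy 1.17.1) were tested on simulated data.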

Additional observations from a re-analysis of the deposited data

How the results depend on the processing

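With 1 library for each mark, leaving out a replicate was not done and nothing shows the spread between cultures. No paired analysis was possible because the K562 groups have 1 sample each and no test was made. In 57 recomputed values, 27 stayed within the main interval or within 1.5 times the main count, 29 moved outside it and 1 changed sign. Differences of median ratios could not change under the other scalings, so their values there count among the 27 by construction. The difference between length classes has no value with islands of at least 1000 bp alone.

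The median log2 ratio, 0.60, became -0.14 when scaled to the sums over identical islands, the 1 change of sign, and 0.81 with library ratios. It was 0.70 with at least 50 reads in each list and 10 of background, 1.16 in excess reads and 0.57 for at least 1000 bp. Islands with at least 2-fold more H3K122ac numbered 1132, and 241 when scaled to identical islands, 2229 in excess reads, 3130 with ends within 200 bp, 12588 over all pairs that meet only each other, 1975 at 1.5-fold and 346 at 3-fold. Islands with at least 2-fold more H3K4me1 numbered 33, and in the same settings 365, 68, 140, 712, 140 and 1. They numbered 9 with library ratios and 21 with the minimum of reads. The settings with wider ends count over 10938 and 39770 pairs in place of 3889 islands.

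The difference with minus without H3K27ac, 0.29, was 0.19 with the minimum of reads, 0.40 for at least 1000 bp and 0.38 with H3K27ac islands of fold 2 or more. It stayed at 0.26 with ends within 200 bp and at 0.26 over all pairs that meet only each other. The difference between shortest and longest islands, 0.07, was 0.35, 0.20 and 0.21 with the minimum of reads, in excess reads and over all pairs. The difference between lowest and highest background, 0.25, was 0.031 in excess reads. The share with H3K27ac was 76.6% with ends within 200 bp, 82.0% for at least 1000 bp, 69.3% with at least 50% of the island covered and 58.4% with H3K27ac of fold 2 or more. The cause of these moves was not tested.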

Other observations

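Identical islands that lay close together did not have similar ratios. For 245 pairs of successive identical islands up to 10000 bp apart, Spearman rho of the log2 ratio between neighbours was 0.01 and the median absolute difference 0.59. For 732 pairs over 1000000 bp apart the values were 0.03 and 0.67. Between neighbours up to 10000 bp apart, rho was 0.05 for the H3K122ac level and 0.06 for the H3K4me1 level. The pairs share 2 libraries and overlap in members, so these values are a description.

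Of the 6 identical islands with the highest background per kb, 4 lay on chromosome 22 between 19673601 and 22237400 (hg19). At chr22:19793401-19797400 the background was 175.5 reads per kb, with 260 H3K122ac reads and 617 H3K4me1 reads over 702 background reads. At chr22:20063401-20074200 it was 155.5, with 1837 and 2741 reads over 1679. At chr22:22228001-22237400 it was 152.8, with 481 and 951 reads over 1436, and at chr22:19673601-19680000 it was 148.8, with 1042 and 1025 reads over 952. Their log2 ratios were -0.29, 0.38, -0.02 and 0.98. In the same order the authors' folds were 1.43, 4.24, 1.30 and 4.24 for H3K122ac and 1.51, 2.81, 1.14 and 1.85 for H3K4me1. The folds at chr22:22228001-22237400 were the lowest of all identical islands for both marks. Where folds are so low the ratio rests largely on background reads, so no conclusion is drawn from these ratios. The remaining islands of the 6, chr7:133873001-133873400 and chr1:173532001-173532400, had ratios of 0.33 and 0.65. Chromosome X, outside the numbered chromosomes, held a further 135 identical islands.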
